A study of Mus musculus with 11 samples.

Results

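Broad H3K27ac domains were the regions of at least 3000 bp in the deposited H3K27ac region list of mouse pancreatic endocrine cells, whatever their annotation. Dropping repeated rows left 819 such domains of 31479 regions, assigned by the file to 742 genes. The cells were tdTomato-positive endocrine cells sorted from the pancreases of C57BL/6 mice at postnatal day 9 (P9), where Neurod1-cre removes floxed Isl1 and switches on an Ai14 tdTomato reporter. Control mice carried Isl1loxP/+;Neurod1-cre and so had lost 1 Isl1 allele in the same cells, and Isl1CKO mice carried Isl1loxP/loxP;Neurod1-cre. All animals carried the Cre and the reporter, and males and females were pooled. H3K27ac and H3K27me3 were each measured by CUT&Tag, in which an antibody directs a transposase to the marked chromatin, in 2 Control and 2 Isl1CKO libraries from separate pools of 3 to 4 pancreases. ISL1 binding was measured in Control cells in 1 library at P9 and 2 libraries at embryonic stage E14.5. The study asked how loss of the LIM-homeodomain factor ISL1 alters active and repressed chromatin in these cells.

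H3K27ac is an acetyl group on histone H3 lysine 27 that marks active promoters and enhancers. It is written by the acetyltransferases p300 and CBP and read by bromodomain proteins, and the same lysine is trimethylated by Polycomb complexes at silenced genes, so a single lysine cannot carry both marks. Where many marked nucleosomes adjoin, the mark forms a broad domain. In many cell types broad domains lie over strongly transcribed genes and over genes of cell identity, which in the endocrine pancreas include homeobox and forkhead factors, hormone granule proteins and the glucose-sensing machinery of beta cells.

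To show what the DNA under such domains looks like, 300-base promoter windows (250 bases before to 50 after a transcription start) are printed for 6 genes. Nkx6-1, Foxa2 and Pax6 are islet transcription factors. Glp1r is the incretin receptor gene, with the largest H3K27ac difference between the genotypes among the broad domains of islet genes. Uqcrh has the densest domain and Plxnb2 the widest domain at a promoter. The sequences are from RefSeq (GRCm38.p6), read 5′ to 3′ on the gene's strand, with the first window listed for each gene. The domains are on GRCm39, so the windows were matched by symbol and not by position. Capitals mark every match on either strand to TAATG, a core bound by homeodomain proteins, or to GGGCGG, the GC box.
Nkx6-1: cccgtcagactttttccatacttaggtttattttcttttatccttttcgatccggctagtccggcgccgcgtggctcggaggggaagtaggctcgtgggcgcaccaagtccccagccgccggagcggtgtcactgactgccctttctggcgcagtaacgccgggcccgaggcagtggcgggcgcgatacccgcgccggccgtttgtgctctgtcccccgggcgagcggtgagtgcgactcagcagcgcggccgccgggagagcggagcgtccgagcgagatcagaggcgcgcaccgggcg
Foxa2: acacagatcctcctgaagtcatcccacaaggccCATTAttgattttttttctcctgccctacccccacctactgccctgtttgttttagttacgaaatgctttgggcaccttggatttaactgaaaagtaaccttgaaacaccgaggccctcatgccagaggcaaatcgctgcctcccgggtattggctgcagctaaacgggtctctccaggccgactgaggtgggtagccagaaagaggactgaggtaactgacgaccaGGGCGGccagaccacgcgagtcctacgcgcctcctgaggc
Pax6: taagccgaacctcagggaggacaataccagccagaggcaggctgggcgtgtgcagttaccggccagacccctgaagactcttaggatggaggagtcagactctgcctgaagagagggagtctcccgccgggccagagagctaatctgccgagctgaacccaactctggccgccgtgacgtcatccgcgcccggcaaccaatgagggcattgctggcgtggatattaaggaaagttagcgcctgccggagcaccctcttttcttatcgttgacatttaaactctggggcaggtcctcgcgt
Glp1r: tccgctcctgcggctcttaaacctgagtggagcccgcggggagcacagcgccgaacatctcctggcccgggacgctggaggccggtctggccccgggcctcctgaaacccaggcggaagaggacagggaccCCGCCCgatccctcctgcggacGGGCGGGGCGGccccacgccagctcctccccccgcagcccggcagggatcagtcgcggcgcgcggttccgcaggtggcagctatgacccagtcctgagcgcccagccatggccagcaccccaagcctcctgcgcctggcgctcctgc
Uqcrh: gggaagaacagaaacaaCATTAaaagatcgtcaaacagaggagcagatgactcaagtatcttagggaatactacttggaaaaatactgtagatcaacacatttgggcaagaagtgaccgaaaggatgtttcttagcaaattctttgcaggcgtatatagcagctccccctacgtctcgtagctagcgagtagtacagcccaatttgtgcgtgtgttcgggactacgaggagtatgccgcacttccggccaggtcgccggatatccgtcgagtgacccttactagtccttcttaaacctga
Plxnb2: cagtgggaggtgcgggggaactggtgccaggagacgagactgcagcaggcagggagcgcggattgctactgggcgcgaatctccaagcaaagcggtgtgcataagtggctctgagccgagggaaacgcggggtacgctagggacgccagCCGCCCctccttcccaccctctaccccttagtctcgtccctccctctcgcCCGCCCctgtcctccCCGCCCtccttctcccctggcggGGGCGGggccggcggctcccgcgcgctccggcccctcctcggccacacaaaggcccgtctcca
The Nkx6-1, Pax6 and Uqcrh windows hold 0 GC boxes, Foxa2 holds 1, Glp1r 3 and Plxnb2 4, while TAATG occurs in this set at Foxa2 and Uqcrh. GC content runs from 46.7% at Uqcrh to 73.7% at Glp1r.

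GC-rich sequence was shared by most promoters under broad domains. Of the 510 domains that lay within 1 kb of a start, each assigned to a different gene, 321 matched a promoter of the table. Their median GC content was 66.0%, beside 61.3% for 7467 genes with a narrower H3K27ac region at the start and 52.7% for all 27025 promoters. The ratio of observed to expected CpG had a median of 0.752, close to the 0.763 of promoters under narrower regions and above the 0.389 of all promoters. The GC box GGGCGG was in 70.1% of windows under broad domains, in 66.1% under narrower regions and in 35.9% of all windows. TAATG went the other way, at 13.4%, 14.7% and 27.02%. The E-box CANNTG, the class of site bound by NEUROD1 and other bHLH factors, was in 60.1%, 62.9% and 72.1%, and TATAAA was in 6.23%, 6.29% and 14.2%. All 4 motifs were searched on both strands with overlaps allowed, and a match is a description of letters, not of a bound site.

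The domains ran from 3000 to 12778 bp, with a median of 3573 bp, and 86 of them reached 5000 bp. Together they covered 3.20 Mb. H3K27ac was also denser in them, at a median of 33.7 CPM per kb of width against 21.1 in narrower regions. CPM is a library's count in a region relative to its total in all regions, scaled between libraries by trimmed mean of M values (TMM). Every domain had at least 17 counts in each of the 4 libraries, and all 819 passed the filter on low counts. At the threshold itself the 3 narrowest domains, annotated to Gm16853, Gm31510 and Gm56533, measured 3000, 3001 and 3006 bp, and the 3 widest regions left out, at Gm56046, Tspan15 and Gm20636, measured 2999, 2998 and 2996 bp.

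Most domains lay at promoters. A total of 480 domains (58.6%) extended over a transcription start, against 31.4% of narrower regions, and 555 (67.8%) had a promoter annotation, against 47.1%. Annotation to a 5-prime UTR was also more frequent, at 10.1% (83 domains) against 3.91%. Introns held 98 domains (12.0%, against 28.7%), exons 41, 3-prime UTRs 13, and distal intergenic sequence 29 (3.54%, against 11.5%). Intronic domains were the least dense class, at a median of 27.2 CPM per kb, and domains within 1 kb of a start the densest, at 35.9.

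The widest domain was 12778 bp long and lay inside Ahdc1 (chr4:132768609-132781386), which encodes an AT-hook DNA-binding protein. It had more H3K27ac than any other named domain, at 415 and 359.6 CPM in Control and 564 and 498 in Isl1CKO. Plxnb2, a plexin receptor for semaphorins, followed at 9233 bp (chr15:89056438-89065670). Next came a CXXC zinc finger gene, Cxxc5 (listed under Gm50399, 8751 bp). An 8704-bp domain listed under the ribosomal protein gene Rps14 overlapped Ndst1. The others of the 8 widest included Pkdcc (8633 bp), a secreted protein kinase, and Ptbp1 (8265 bp), a splicing repressor. The list ended with Frmd8 (listed under Gm55523, 7758 bp) and Bcar1 (7501 bp), an adaptor of integrin signalling. Width and density ranked different genes. The densest domain, at 114 CPM per kb, covered the start of Uqcrh (chr4:115931931-115935280), a subunit of mitochondrial complex III, in 3350 bp. It was followed by the Srf domain (listed under the microRNA Mir6976) at 75.7 CPM per kb and by Klf13, a Krüppel-like factor, at 74.4. The others of the 8 densest domains lay between 64.7 and 68.9 CPM per kb, at Gm48623, Map7d1, the corepressor gene Tle5, the autophagy receptor gene Sqstm1 and Arap1 (listed under Gm45548).

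**Figure D1:**
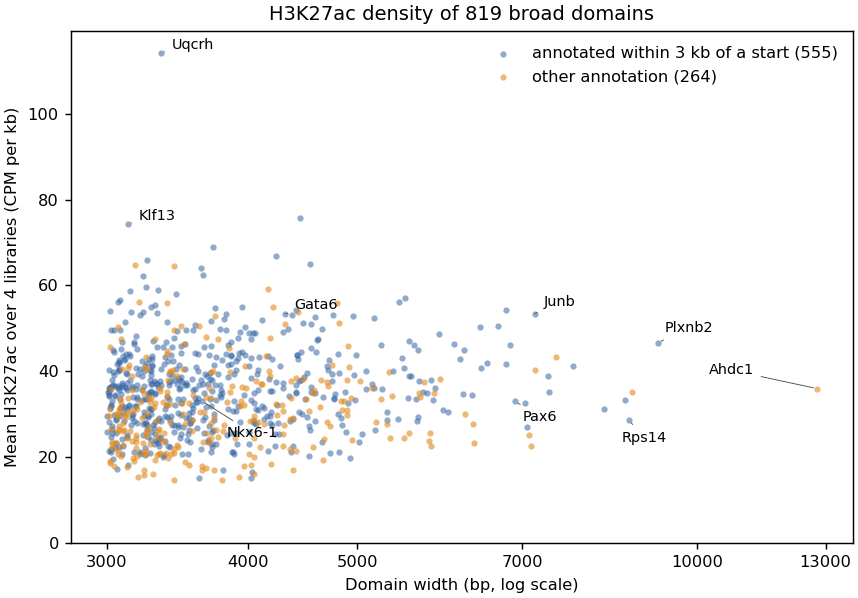
Width in bp (log axis) and mean H3K27ac over the 4 libraries in CPM per kb for each of the 819 broad domains, coloured by annotation within 3 kb of a start (555) or elsewhere (264). The densest domain, at Uqcrh, is 3350 bp wide, and the widest, at Ahdc1, has a density of 35.9 CPM per kb.

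Several genes carried more than 1 domain. By the file's own assignment, 682 genes had 1 domain, 49 had 2 and 11 had 3 or more. Many rows name a noncoding RNA or microRNA inside a larger gene, so the genes whose bodies the domains overlap were also read from the file's flanking-gene columns. Gse1, which encodes a subunit of a histone deacetylase corepressor complex, was overlapped by 15 domains that together covered 61233 bp, or 17.3% of its length. Shb, an adaptor protein gene, and the transcription factor genes Nfic and Casz1 each had 5. Cxxc5 had 4, which spanned a length equal to 70.6% of the gene, and Adgrg1, an adhesion G protein-coupled receptor, had 4 (49.9%). The 15 Gse1 domains did not move as a block between the genotypes: their log2 fold changes of Isl1CKO over Control ran from -0.51 to 0.92 around a median of 0.10, and 4 had both Isl1CKO libraries above both Control libraries and 1 below (over all domains 34.4% and 7.08%, over all regions tested 18.1% and 19.4%). The 3 domains of Srebf1, a master regulator of lipid synthesis, lay at 0.31, 0.88 and 1.05.

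The sorted population was checked against marker genes. All 12 endocrine marker genes had H3K27ac and 3 of them (Chga, Insm1 and Pax6) a broad domain. Their strongest regions summed to 947 to 1216 CPM per library. Acinar markers had H3K27ac at 4 of 14 genes (summed 241 to 340 CPM), with no region listed for Prss1, Amy2a5 or Ptf1a, and ductal markers at 7 of 12 (240.1 to 401 CPM), with none for Cftr or Spp1. Endothelial (4 of 12), mesenchymal (4 of 12), immune (3 of 10) and glial (4 of 8) markers summed to 40.1 to 141 CPM, with none for Cdh5, Kdr, Pdgfra, Col1a2 or Ptprc. The file assigned a broad domain to none of these 42 genes. Among acinar and ductal markers it assigned one to Ctrb1 alone, and that domain lay in its neighbour Bcar1. Domains also overlapped the bodies of Pecam1 and Krt8.

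Total H3K27ac counts over all regions were 1307049 and 1815511 (Control) and 681047 and 1441926 (Isl1CKO). Control replicate 2 stood apart: across the 819 domains its log2 CPM correlated with the other libraries at r = 0.613 to 0.656, while the others correlated with each other at 0.765 to 0.782. It was the lowest of the 4 libraries at 463 domains (56.5%), and Isl1CKO replicate 1, the shallowest library, was the highest at 340. In Control replicate 2 the summed endothelial markers were 115 CPM, against 40.1 to 49.2 in the other 3 libraries. Its ductal markers summed to 240.1 CPM, against 369 to 401, and its endocrine markers to 947 CPM, against 1065 to 1216. Control replicate 1 had the highest acinar sum (340 CPM, against 241 to 268) and the highest immune sum (74.9 CPM, against 42.6 to 49.9). The part of these markers in the results was not tested. Values without Control replicate 2 are given beside many of the results, but not beside all of them. A bulk library sums all sorted cells, so fewer cells of a type and less mark per cell cannot be told apart.

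The first comparison asked whether broad domains gained or lost H3K27ac in Isl1CKO cells. They held 11.1% and 9.44% of counts in regions in the 2 Control libraries and 12.0% and 11.4% in the Isl1CKO libraries, or 10.3 ± 1.16% and 11.7 ± 0.466% (SD, n = 2). Both Isl1CKO libraries lay above both Control libraries, by 1.44 percentage points between the means. The exact two-sided permutation p was 0.333, the smallest that 2 against 2 libraries allow, so the test cannot pass 0.05. Without Control replicate 2 the difference was 0.621 points.

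**Figure D2:**
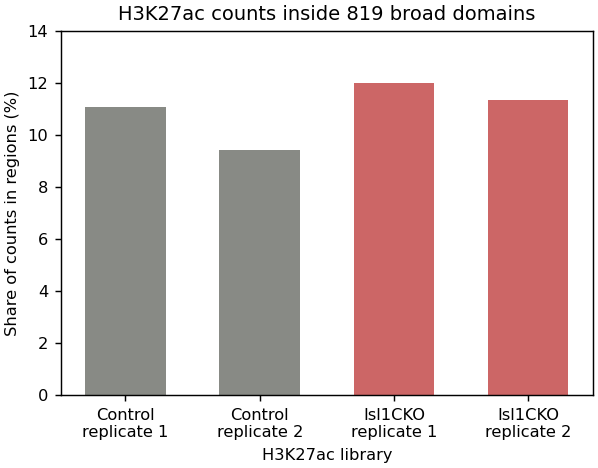
Share of each H3K27ac library's counts in regions that fell inside the 819 broad domains, in percent. The Control bars stand at 11.1% and 9.44% and the Isl1CKO bars at 12.0% and 11.4%.

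No single domain passed the test. With edgeR's quasi-likelihood test, 0 of 819 domains had an adjusted p below 0.05, as did 0% of the 30036 regions tested. At an unadjusted p below 0.05, 64 domains (7.81%) were on the higher side in Isl1CKO, against 2.71% of all regions tested, and 5 (0.611%) on the lower side, against 3.12%, so that 8.42% lay on either side, against 5.83%. DESeq2 called 1 domain higher, inside Rbfox3, and 0 lower, against 0.0699% and 0.0266% of regions. Both Isl1CKO libraries lay above both Control libraries at 282 domains (34.4%, against 18.1% of all regions tested) and below both at 58 (7.08%, against 19.4%). Within the top 10% of regions by mean CPM, these shares were 34.5% and 7.59% for domains and 28.4% and 10.3% for narrower regions. The 64 became 47 without Control replicate 2 (5.74%, against 3.91% of regions in that fit) and 234 without Control replicate 1 (28.6%, against 11.5%). They became 15 without Isl1CKO replicate 1 (1.83%, against 0.918%) and 25 without Isl1CKO replicate 2 (3.05%, against 0.949%). In the authors' deposited table, 512 of the 819 domains had a higher value at an adjusted p below 0.05 and 0 a lower one, against 28.9% and 6.04% of regions. The log2 fold changes of that table lay 0.58 above those computed here with TMM scaling.

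The log2 fold changes of the domains were small and mostly above 0. Their median was 0.23, with 611 above 0 (74.6%, against 48.6% of all regions tested), while the median of narrower regions was -0.04. The median standard error of a single domain was 0.34. The median was 0.11 without Control replicate 2, 0.41 without Control replicate 1 and 0.81 when the shift of the authors' table was applied, which moves the median of all regions to 0.55. Width and signal went together, since 751 of the 819 domains lay in the top 10% of regions by mean CPM. Among those regions the median was 0.23 for broad domains and 0.19 for narrower regions, and after a loess correction of each library on abundance the median of the domains was 0.04, with 54.3% above 0. Across width classes the TMM-scaled median went from -0.28 below 1000 bp to 0.23 at 5000 bp or more, and with the loess correction every class lay between -0.01 and 0.05.

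**Figure D3:**
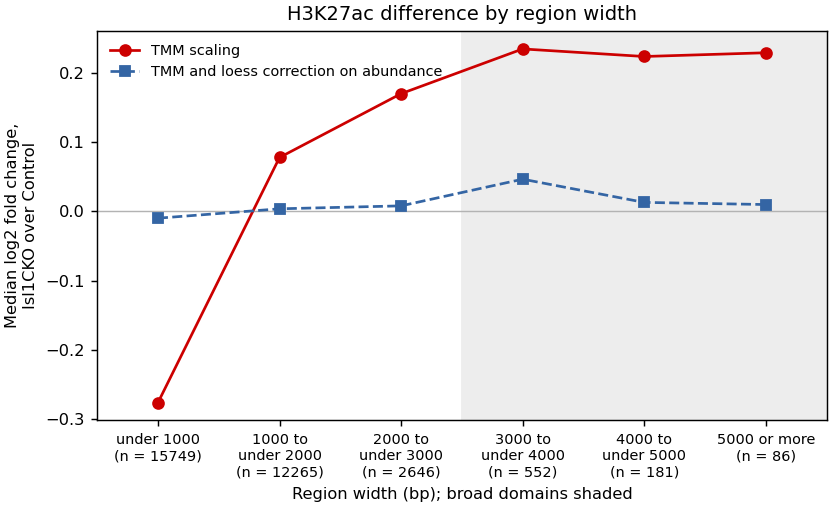
Median log2 fold change of H3K27ac, Isl1CKO over Control, in 6 classes of region width in bp, with TMM scaling (circles) and with an added loess correction on abundance (squares); the shaded classes are the broad domains. With TMM scaling the medians run from -0.28 to 0.23, and with the correction from -0.01 to 0.05.

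Among genes of mature beta cells, the broad domains measured lower in Isl1CKO at Glp1r and Kcnj11. Of the 23 genes fixed as beta cell function genes, 19 had H3K27ac and 5 had a broad domain, none of which passed the test. Their median was -0.65, with 4 below 0, beside 0.23 for all domains and -0.52 for the 37 narrower regions of the same list. Leaving out Control replicate 2 gave -0.36, and leaving out Isl1CKO replicate 2 gave -0.22. Glp1r, the receptor through which GLP-1 potentiates insulin secretion (ENSMUSG00000024027, promoter, chr17:31119886-31123517, 3632 bp), measured 89.5 and 129.9 CPM in Control and 65.4 and 31.6 in Isl1CKO. Both Isl1CKO libraries were below both Control libraries, at 109.7 ± 28.5 against 48.5 ± 23.9 (SD, n = 2). Isl1CKO over Control this is -1.22 on the log2 scale (SE 0.44). Leaving out Isl1CKO replicate 2 gave -0.73, leaving out Control replicate 2 gave -0.94, and the edgeR adjusted p was 0.846.

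Kcnj11 encodes the pore subunit of the ATP-sensitive potassium channel that couples glucose metabolism to insulin release (ENSMUSG00000096146, promoter, chr7:45746100-45750616, 4517 bp). It measured 188 and 154 CPM in Control and 89.8 and 96.3 in Isl1CKO, so the genotypes did not overlap. The fitted difference was -0.88 (log2, SE 0.32; edgeR adjusted p = 0.846) and ranged from -1.01 to -0.68 when any 1 library was left out. In the authors' deposited table Glp1r stood at -0.54 and Kcnj11 at -0.31, and their adjusted p values there were 0.209 and 0.462.

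Domains of 2 further genes of the beta cell list, Dlk1 and Igf1r, overlapped between the genotypes. A distal intergenic domain assigned to Dlk1, an imprinted transmembrane protein (chr12:109405298-109408843), had 62.5 and 83.9 CPM in Control and 71.5 and 39.4 in Isl1CKO. Its log2 fold change was -0.43 (SE 0.45), and 0.15 with the shift of the authors' table. Igf1r, the receptor for insulin-like growth factor 1 (chr7:67600205-67603929), had 134 and 50.4 CPM in Control and 79.1 and 126 in Isl1CKO, or 0.18 on the log2 scale (SE 0.44), with a negative sign when Control replicate 2 or Isl1CKO replicate 2 was left out. No alpha, delta or PP cell gene had a broad domain, although 11 of 17 such genes had H3K27ac.

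Domains of islet transcription factors differed between the genotypes by less than the standard error of the fit at each of the 5 genes, from -0.10 to 0.32 on the log2 scale. Of 33 such genes 25 had H3K27ac and 5 (20.0%) had a broad domain, against 4.51% of all 16445 genes with an H3K27ac region. The 5 had a median log2 fold change of 0.20, close to that of all domains, and 0 passed the test. Without Control replicate 2 this median was -0.10, without Isl1CKO replicate 1 it was 0.046, and without Control replicate 1 and Isl1CKO replicate 2 in turn it was 0.37 and 0.38. Pax6, a paired-homeobox factor needed for endocrine differentiation, had the widest of them (chr2:105496514-105503414, 6901 bp), with 243 and 227 CPM in Control and 224 and 216 in Isl1CKO. Its log2 fold change was -0.10 (SE 0.26), and 0.48 with the shift of the authors' table. Both Isl1CKO libraries were below both Control libraries, by less than the standard error of the fit.

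Nkx6-1, a homeobox factor of beta cells (chr5:101810267-101813907), measured 113 and 105 CPM in Control and 141 and 122 in Isl1CKO, which did not overlap (log2 fold change 0.27, SE 0.32). Foxa2, a forkhead pioneer factor (chr2:147885183-147889101), measured 165 and 75.1 in Control and 166 and 92.1 in Isl1CKO, so the spread within each genotype exceeded the difference between them (0.09, SE 0.40, and -0.08 with the loess correction). The zinc finger factors Myt1 and Insm1 stood at 0.20 (SE 0.36) and 0.32 (SE 0.39) with overlapping libraries. Insm1 had 121 and 59.7 CPM in Control and 94.3 and 129 in Isl1CKO. Counting genes that a domain overlaps, 9 islet factors with 13 domains were found, among them Mlxipl, the cofactor gene Ssbp3 (3 domains, 0.12 to 0.60) and a second domain in Pax6 (-0.44). Of these 13 domains, 6 had both Isl1CKO libraries above both Control libraries and 3 below, where 34.4% and 7.08% of all domains and 18.1% and 19.4% of all regions tested did.

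Hormone granule and exocytosis genes had 3 domains among 24 genes with H3K27ac. Chga, the granin chromogranin A (chr12:102519702-102522858), measured 129 and 58.6 CPM in Control and 116 and 73.1 in Isl1CKO. Ptprn2, a granule membrane protein (chr12:116449061-116453588), measured 142 and 75.6 in Control and 148 and 126 in Isl1CKO. At both genes the libraries of the genotypes overlapped and Control replicate 2 was lowest, with log2 fold changes of 0.00 (SE 0.43) and 0.33 (SE 0.36). The Chga value was negative with the RLE, library total, loess and DESeq2 settings. Syt7, a calcium sensor of exocytosis (chr19:10365141-10368731), measured 164 and 112 in Control and 277 and 174.98 in Isl1CKO, with no overlap (0.70, SE 0.32; edgeR adjusted p = 0.850). It stood at 0.44 without Control replicate 2 and at 0.36 without Isl1CKO replicate 1. A second domain inside Syt7, listed under Lrrc10b, stood at 0.78 (SE 0.35).

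**Figure D4:**
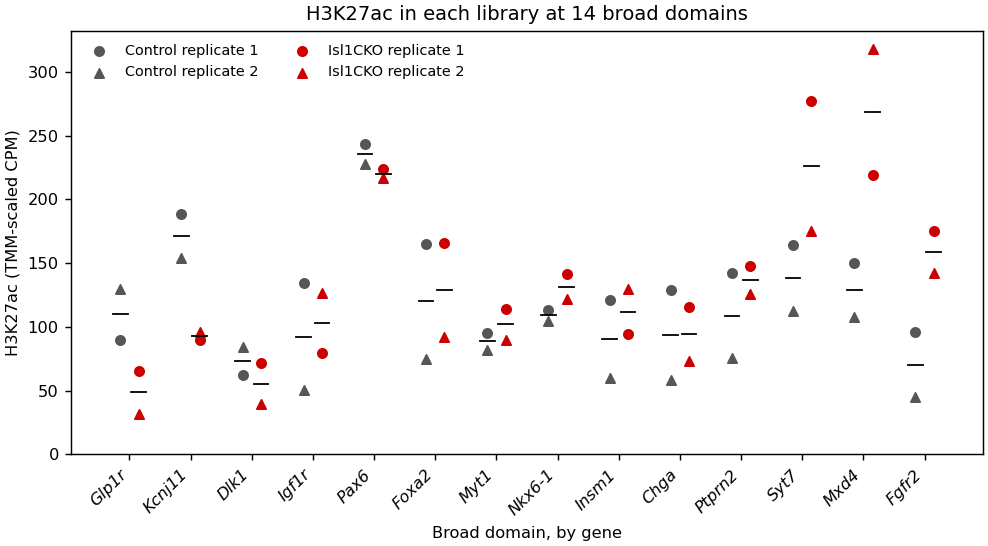
H3K27ac in TMM-scaled CPM at the broad domains of 14 genes in each of the 4 libraries (circles, replicate 1; triangles, replicate 2; grey, Control; red, Isl1CKO), with short bars at the mean of each genotype. Glp1r and Kcnj11 have both red points below both grey points, Nkx6-1, Syt7, Mxd4 and Fgfr2 have both above, and Foxa2, Insm1 and Chga overlap.

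The 6 domains on the higher side with the smallest p each had both Isl1CKO libraries above both Control libraries, as the rule that chose them required. An intronic domain of Rbfox3, the neuronal splicing factor NeuN (listed under Gm11748, chr11:118439235-118444176), measured 79.5 and 51.5 CPM in Control and 179.5 and 164 in Isl1CKO. On the log2 scale the difference was 1.40 (SE 0.35), and its adjusted p was 0.838 by edgeR and 0.0370 by DESeq2. The Bcl9l domain (listed under Gm47205, chr9:44408876-44411960), in a gene for a beta-catenin coactivator, measured 75.6 and 44.4 in Control and 122 and 160.2 in Isl1CKO (1.24, SE 0.38). Fgfr2, a receptor for fibroblast growth factors (chr7:132723208-132727246), measured 95.7 and 44.9 in Control and 174.97 and 142 in Isl1CKO. Fgfr2 stood at 1.18 (SE 0.39), with 0.72 when Control replicate 2 was left out and 1.85 when Control replicate 1 was.

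Mxd4, which encodes a MAX-binding repressor of the MYC network (chr5:34342944-34346750), measured 149.8 and 107 CPM in Control and 219 and 318 in Isl1CKO (1.07, SE 0.30). The remaining domains of this group lay in Mgat4b (listed under Mir6919), a glycosyltransferase gene, at 1.05 (SE 0.33), and in Plec (listed under Gm55508), the cytolinker plectin, at 0.96 (SE 0.30). On the lower side the 6 were Glp1r, Kcnj11, an intergenic domain assigned to 5530400K19Rik (chr1:153578040-153581686), and domains of Samd4b, Slc66a2 and Fam83g. The intergenic domain measured 85.7 and 141 CPM in Control and 56.3 and 59.7 in Isl1CKO (-0.97, SE 0.39). Samd4b, an RNA-binding translational repressor (chr7:28294240-28297893), measured 159 and 161 in Control and 107 and 85.03 in Isl1CKO (-0.75, SE 0.32). Slc66a2 and Fam83g stood at -0.72 (SE 0.33) and -0.68 (SE 0.33), and Fam83g ranged from -1.01 when Control replicate 1 was left out to -0.16 when Control replicate 2 was. The intergenic domain was at -0.56 without Control replicate 2. By edgeR the adjusted p of these 12 domains lay between 0.838 and 0.859.

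Chromatin regulators had a broad domain at 7 of 21 genes with H3K27ac (33.3%), with 9 domains and a median log2 fold change of 0.40. Of these 9, 8 were above 0 (over all domains 74.6%, over all regions tested 48.6%), 4 had both Isl1CKO libraries above both Control libraries (34.4% and 18.1%) and 0 passed the test. Leaving out Control replicate 2 lowered the median to 0.12, and leaving out Control replicate 1 gave 0.86. Kdm6b, the demethylase that removes methyl groups from H3K27, had 2 domains, and the wider (chr11:69298911-69303209) measured 218 and 98.7 CPM in Control and 289 and 238 in Isl1CKO (0.74, SE 0.33), with 0.27 when Control replicate 2 was left out and 1.46 when Control replicate 1 was. Kmt2a, a methyltransferase of H3K4 (chr9:44790539-44794742), measured 171 and 115 in Control and 227 and 207 in Isl1CKO (0.60, SE 0.30), with 0.33 and 0.96 under the same omissions. Arid1a, a subunit of the BAF chromatin remodeler, stood at -0.09 (SE 0.27), a value that was positive with the shift of the authors' table.

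By assigned gene, signalling genes had domains at 6 of 24 genes, all above 0 with a median of 0.35. Fgfr2 was the only one of these whose genotypes did not overlap. Read by the genes that domains overlap, 8 signalling genes had 8 domains, with a median of 0.14, 7 above 0 and 1 below. Foxo1 and Foxo3, forkhead effectors of insulin signalling, stood at 0.05 (SE 0.36) and 0.20 (SE 0.28), and both values were negative with the loess correction. Immediate early and stress genes had 4 of 20, with a median of 0.21. Junb, an AP-1 subunit, had the widest of these (7184 bp), with 327 and 383 CPM in Control and 417 and 408 in Isl1CKO (0.22, SE 0.22, negative with the loess correction). The endocrine progenitor list had 2 of 13 (Btg2 and Mfng), RNA processing genes 1 of 18 (Hnrnpa2b1, 0.68, SE 0.30) and cytoskeleton and adhesion genes 1 of 14 (Actb, 0.37, SE 0.33). Of 26 developmental regulators that Polycomb silences in most tissues, 2 had H3K27ac and 1 had a broad domain: Gata6, a GATA factor that islets express, at 0.10 (SE 0.26, negative with the loess correction). Within these 6 lists 0 domains passed the test.

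The log2 fold changes of other H3K27ac regions of the same genes correlated weakly with those of the domains. Narrower regions were measured less precisely, with a median standard error of 0.77 against 0.34 for domains. How far this lowered the correlation was not tested. For 544 genes with a domain and at least 1 narrower region, Pearson's r between the 2 log2 fold changes was 0.134 across genes, which share their libraries and are not independent replicates, and 54.0% of genes had the same sign.

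The second comparison asked how broad domains met H3K27me3, the Polycomb mark on the same lysine. Of the 819 domains, 27 (3.30%) overlapped an H3K27me3 region by at least 1 bp, against 6.96% of narrower H3K27ac regions. Within 1 kb of a start the shares were 4.51% and 10.9%, and none of the 83 domains in a 5-prime UTR or the 29 distal domains overlapped. At least 50% of the domain was covered at 13 of them. Overlapping domains had a median of 26.5 CPM of H3K27ac per kb, against 34.1 for the other domains. Of the domains with overlap, that at Pax6 was covered in small part (5.41%), whereas Nptx1 (74.96%), Ankrd33b (84.0%), Pitpnm3 (95.0%) and Itpkb (95.4%) were mostly covered.

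The 4 domains with the fullest cover included both beta cell genes with lower H3K27ac. The Glp1r domain was covered to 99.5% by a 4847-bp H3K27me3 region (chr17:31118652-31123498) and the Kcnj11 domain to 97.8% by one of 4852 bp (chr7:45745666-45750517). The other 2, assigned to Gm57380, lay wholly inside a 19923-bp H3K27me3 region at the Polycomb gene Cbx8 (chr11:118931404-118951326), with H3K27ac log2 fold changes of 0.20 (SE 0.37) and -0.47 (SE 0.33). H3K27me3 at Glp1r measured 172 and 72.8 CPM in Control and 160.2 and 146 in Isl1CKO, so the genotypes overlapped (0.33, SE 0.37, -0.21 with the shift of the authors' table, and -0.18 to 1.06 when a library was left out, negative without Control replicate 2). At Kcnj11 raw H3K27me3 counts were 172 and 3 (Control) and 142 and 249 (Isl1CKO). Control replicate 2 alone was near 0 there, so the difference of 0.14 (SE 1.01) became 5.51 when Control replicate 1 was left out and -0.88 when Control replicate 2 was. Whether the 2 marks lay in the same cells was not tested.

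**Figure D5:**
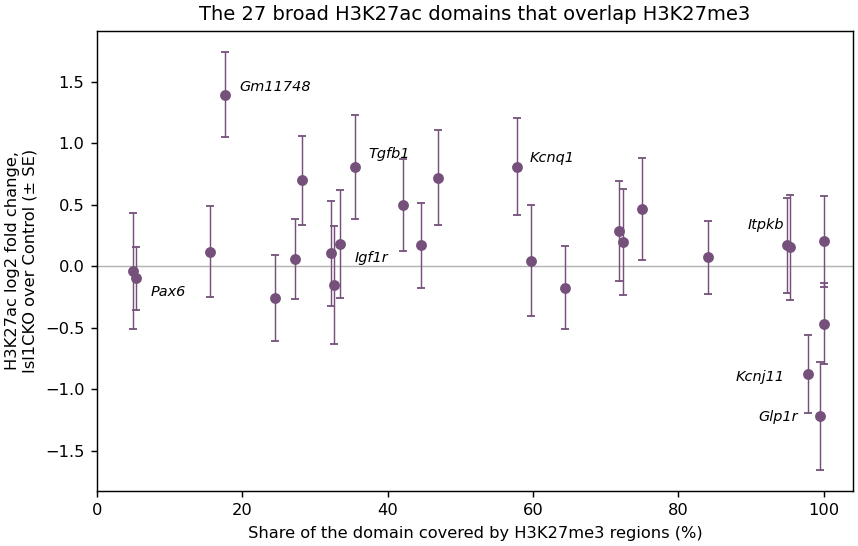
H3K27ac log2 fold change of Isl1CKO over Control (± SE) for the 27 broad domains that overlap H3K27me3, against the share of the domain covered by H3K27me3 regions in percent. Glp1r at 99.5% and Kcnj11 at 97.8% cover have the lowest values, -1.22 and -0.88, while Itpkb at 95.4% stands at 0.15.

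The H3K27me3 regions at broad domains were mostly lower in Isl1CKO, without passing the test. Of 30 such regions 29 were tested, and 0 had an edgeR adjusted p below 0.05, as for 0% of 19434 H3K27me3 regions. At an unadjusted p below 0.05, 4 were lower (13.8%, against 2.98%) and 0 higher (against 1.35%), or 13.8% against 4.34% in both directions. DESeq2 called 2 lower and 0 higher (against 0.617% and 0.0154%). In the authors' deposited table, adjusted p was below 0.05 at 16 lower regions and 1 higher (against 30% and 7.47%), and the fold changes of that table for this mark lay -0.54 from those computed here. Both Isl1CKO libraries were below both Control libraries at 8 (27.6%, against 16.7%) and above at 2 (6.90%, against 18.7%). Their median log2 fold change was -0.43, against 0.05 for all H3K27me3 regions, and 8 were above 0 (27.6%, against 52.5%). The median lay between -0.64 and -0.30 when any 1 library was left out. The sign held under all 11 alternatives at 12 of the 29. Pitpnm3, a phosphatidylinositol transfer protein (chr11:72024970-72026596), had 52 and 75 raw counts (Control) and 0 and 26 (Isl1CKO), and Gm42545 (chr5:118164155-118167368) had 119 and 109 against 71 and 46. The large Cbx8 region stood at -0.31 (SE 0.13), and all 3 had an edgeR adjusted p of 1.00. In the Rbfox3 domain, the region not tested held 2 and 51 counts (Control) and 0 in both Isl1CKO libraries, where 0 counts allow up to 1.28 CPM each.

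The third comparison set the domains beside ISL1 in Control cells. The deposited ISL1 values are whole numbers per promoter window whose unit is not stated in the sources used here, with a single value per stage and so no replicate error. Of the 742 genes with a broad domain 451 had a window. At P9, 64 (14.2%) had a value of at least 1, against 10.7% of 9461 genes with narrower regions only. At E14.5 it was 339 (75.2%), against 56.8%, and 54 (12.0%) reached 5 or more, against 3.08%. No gene with a broad domain reached 5 at P9, against 0.0528% of genes with narrower regions only. The highest P9 value was 3, at Kcnk3, a leak potassium channel gene, followed by 2 at Foxa2, Foxo1, Akt1, Usp35 and 1810012K08Rik. At E14.5 the highest value was 9, at Msl1, and Insm1 had 7, Pax6 6, Nkx6-1 and Chga 5, Kcnj11 3, and Glp1r and Syt7 0.

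Domains of genes with and without an ISL1 value at P9 had close medians of the H3K27ac difference, at log2 fold changes of 0.21 over 65 domains and 0.22 over 422, and at 0.061 and 0.087 without Control replicate 2. Both Isl1CKO libraries lay above both Control libraries at 26.2% of the former and 33.2% of the latter, and below both at 7.69% and 7.35%. Kcnk3 measured 107 and 125 CPM in Control and 148 and 133 in Isl1CKO (0.27, SE 0.32), and Akt1, a kinase of insulin signalling, measured 144 and 106 in Control and 189 and 195 in Isl1CKO (0.63, SE 0.30). H3K27me3 overlapped 9.23% of the 65 domains and 2.84% of the 422.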

How the data were processed

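CUT&Tag libraries of H3K27ac and H3K27me3 (2 Control and 2 Isl1CKO each, P9) and ISL1 (Control) were grouped by their labels. Per the submitters' processing notes, the tools were edgeR 4.0.16, ChIPseeker 1.38.0, Bowtie2 2.3.5.1, MACS2 2.2.6 and Picard 2.27.4, with the build GRCm39. The authors deposited raw counts per region and library, with region coordinates and annotation. Beside them the authors deposited log2 fold changes and adjusted p-values, and, in another file, ISL1 values, a score of unstated unit per promoter window. How regions were merged over libraries is not given in the sources used here. Chromosome labels of the histone files followed alphabetical order and were relabelled. As written 7.48% of H3K27ac regions matched the chromosome of their gene, and 100% after it.

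Counts were fitted over all regions of a mark with edgeR 4.0.16 (R 4.3.3): filterByExpr, TMM, quasi-likelihood test, Benjamini-Hochberg adjustment, called below 0.05. After the filter 30036 regions of H3K27ac were tested (1443 fewer than listed), and 19434 of H3K27me3 (652 fewer). Domains were regions of at least 3000 bp. DESeq2 1.42.0, other scalings, a block and left-out libraries were alternatives, and the procedure was tested on simulated data. The depth of 681047 to 1815511 H3K27ac counts per library limits precision, and floors cover counting error only.

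The members and lists were chosen with earlier results of these data known. Named domains were the 8 widest and 8 densest, per direction the 6 with the smallest p whose genotypes did not overlap, those of 4 islet gene lists and up to 4 of each other list. The rule also took the 5 widest distal and intronic domains, the 6 with most H3K27me3 cover and the 6 with the highest P9 ISL1 value, genes with 3 or more domains, and those at the width threshold. Sequences from chromosome 18 were not used, and some items that the rule names are not reported here. Genes overlapped by a domain, including Gse1, Srebf1 and Ssbp3, and the E14.5 ISL1 values were named after their values were seen. Per-library values are given for those that the results turn on.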

Additional observations from a re-analysis of the deposited data

How the results depend on the processing

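Counts of called domains were 0 with TMM, RLE, library totals, the authors' shift, loess, no filter and the replicate block, 1 with DESeq2, and 0 to 90 when a library was left out. The 90 came without Control replicate 1 (86 higher; 11.0% of domains, against 6.96% of regions), against 1 without Control replicate 2, at Mknk2 (chr10:80504045-80507435; 0.122%, against 0.0505%), and 0 without either Isl1CKO replicate. In these fits the lone library is assumed to vary like the others. For H3K27me3 at domains the count was 3 with the authors' shift and 2 with DESeq2, all lower, and 0 otherwise. The median of 0.23 became 0.81 with the authors' shift, 0.035 with loess, 0.11 to 0.41 without a library, and 0.24 with the replicate block. The replicate numbers share only a number, since deviations correlated at 0.049 (H3K27ac) and -0.014 (H3K27me3) over 2 pairs, and the block changed no call. Domains of 5000 bp or more differed in share by 0.229 points, and there the genotypes overlapped (exact permutation p = 0.667). They held 1.95% and 1.63% in the Control libraries and 2.09% and 1.94% in the Isl1CKO libraries. For all broad domains, leaving out a library moved the share difference from 0.621 to 2.26 points. H3K27me3 cover of at least 50% held for 1.59% of domains. ISL1 at 5 or more at P9 held for 0% of their genes, against 0.0528% of genes with narrower regions only. The GC difference of 13.3 points from all promoters was 4.67 from promoters under narrower regions.

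Signs changed at Dlk1 (0.15) and Pax6 (0.48) with the authors' shift, at Foxa2 with loess (-0.078), and at Chga with RLE (-0.0086), totals (-0.049), loess (-0.15) and DESeq2 (-0.0087). Without a library the values ran from -0.36 to 1.10 at Igf1r, -0.48 to 0.71 at Chga, -0.063 to 0.89 at Ptprn2, -0.10 to 0.96 at Insm1 and -0.38 to 0.80 at Foxa2. The cause was not tested. Over all 11 alternatives, 51 of 113 named domains kept their sign, among them 8 of the 27 below 0, which include Glp1r and Kcnj11. The authors' shift alone turned 19 of those 27. Glp1r, Fgfr2, Syt7 and 7 others passed the threshold without Control replicate 1 (of 23 tested in full). With 1 library against 2, non-overlap is more frequent in all regions. Domains above and below were 66.1% and 15.1% without Control replicate 1 (regions 37.8% and 39.4%), 44.0% and 24.1% without Control replicate 2 (33.2% and 34.4%), 45.5% and 18.4% without Isl1CKO replicate 1 (31.8% and 32.1%), and 56.8% and 13.1% without Isl1CKO replicate 2 (32.0% and 34.3%). These, and the medians of gene sets without a library, were chosen after seeing the data.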

Other observations

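Broad domains were unevenly spread over chromosomes. Chromosome 11 held 112 of the 819 (13.7%) and chromosome 7 held 88 (10.7%). These were 3.97% and 3.96% of the H3K27ac regions of each chromosome, beside 819 of 31479 regions over all chromosomes. Chromosome 14 held 11 (1.07% of its regions) and chromosome X 3 (0.732%). Gene density and GC content of the chromosomes were not compared.

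Distal intergenic domains reached 4822 bp, in a domain assigned to Wasf2, an actin regulator (chr4:132810927-132815748), where H3K27ac measured lower in both Isl1CKO libraries (log2 fold change -0.37, SE 0.25, positive with the shift of the authors' table). One assigned to Pck1, the gluconeogenic enzyme PEPCK (chr2:173012730-173016810), stood at 0.30 (SE 0.33). The 29 distal domains had a median of 0.21, against -0.23 for narrower distal regions, and at 12 both Isl1CKO libraries were above both Control libraries and at 3 below, which is near the 34.4% and 7.08% of all domains (all regions tested, 18.1% and 19.4%). Without Control replicate 2 the median was 0.12. Their median density was 28.2 CPM per kb, against 18.5 in narrower distal regions.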
